A study of Mus musculus with 7 samples.

Results

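The ligands of the tumour necrosis factor (TNF) superfamily were examined in follicular dendritic cells (FDCs), stromal cells that hold antigen for B cells within follicles. The family was taken as the rows of the deposited table whose symbol was Tnfsf13b, Tnfsf11, Ltb, Lta, Tnf, Tnfsf8, Tnfsf9, Tnfsf10, Tnfsf14 or Tnfsf13. All 10 were found, among 21176 genes in all. The cells came from male mice of 8 to 12 weeks that had not been immunized: popliteal nodes of several animals were pooled for each sample and FDCs were isolated by FACS. The groups were wild-type (WT, n = 4 samples) and Ngfr KO, labelled as lacking Ngfr, the gene of the neurotrophin receptor p75 (n = 3 samples). The labels give neither the sort gate nor the design of the Ngfr allele, so a loss in FDCs alone cannot be told apart from a loss in every cell of the mouse.

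TNF family ligands are trimeric proteins, most of them made as membrane proteins that can be shed, and they signal through receptors that recruit TRAF adaptors or death-domain proteins. In lymphoid tissue, lymphotoxin and TNF from B cells keep FDCs and follicles in place, while stromal cells supply BAFF (Tnfsf13b), on which B-cell survival depends, and RANKL (Tnfsf11), which marks the stroma at the outer edge of the node. The design asks which transcripts differ in these cells when Ngfr is lost. The design text calls the samples independent.

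The 7 libraries held 17244925 to 21538400 reads, with 20741770 or more in each knockout sample and 18873542 or fewer in each WT sample, so depth and genotype cannot be told apart. Values are TMM-normalised reads per gene, and a value of 1 stood for 230 to 295 reads. Ngfr itself had values of 0.377, 0.677, 1.30 and 1.14 in WT replicates 1 to 4 and 0.305, 0.353 and 0.184 in Ngfr KO replicates 1 to 3. These values did not overlap, although WT replicate 1 lay just above the knockout, where 46 to 104 reads were still counted. Of 14 FDC markers, 14 had a value above 0 in every sample, and their summed value was 1840 to 5156 in WT samples and 8029 to 10542 in knockout samples. Cxcl13 was the largest gene of this sum, at 859 to 2905 in WT samples and 2352 to 5277 in knockout samples, which overlap. Endothelial markers were also present, with all 12 above 0 in every sample; their sum was 116 to 162 in WT samples and 28.3 to 49.8 in knockout samples. A pair of libraries stood apart: WT replicate 1 had the lowest FDC sum (1840, against 3991 or more in the other samples), and WT replicate 3 had a plasma cell sum of 44.7, against 6.27 to 19.3 elsewhere. Most of that 44.7 was Jchain, at 31.8. In the same sample Xbp1 had 9.56, Mzb1 3.31, and Prdm1 and Irf4 0. In bulk samples, fewer cells of a type and less RNA per cell cannot be told apart.

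Of the 10 ligands, 3 rose and 2 fell in Ngfr KO. Tnfsf13b, Tnfsf11 and Tnfsf9 were higher, and Ltb and Tnfsf10 were lower, in each case with no overlap between the genotypes. The test was limma on log2(value + 1) over the 8326 genes that reached a value of 1 in 3 or more samples, and genes were called where the p-value, adjusted by Benjamini and Hochberg's method, was under 0.05. In that test 34.2% of all genes were called, 18.3% of them higher and 15.8% lower as shares of the genes tested, so calls were common throughout the table. In edgeR's quasi-likelihood test on reads recovered from the values, 15.2% of 16751 genes were called (8.67% higher, 6.55% lower), and 4 of the 9 ligands tested. Without a filter edgeR called 10.7% of genes (6.36% higher, 4.33% lower) and DESeq2 called 21.9% of 18205 (11.5% higher, 10.5% lower), each with 4 ligands. Groups did not overlap for 40.9% of the genes of the limma test (22.6% with the knockout above, 18.3% below) and for 25.6% of all genes (12.5% above, 13.1% below). Of the other 5 ligands, Tnfsf8 was tested and not called, and Lta, Tnf, Tnfsf13 and Tnfsf14 were under the filter on low values. Tnfsf11 and Tnfsf9 reached a value of 1 in all 3 Ngfr KO samples and in a single WT sample each, so they entered the test through the group in which they were high. The number called was 5 also without WT replicate 1 and without WT replicate 3. The summed value of all 10 ligands was 18.9 to 24.2 in WT samples and 21.9 to 23.9 in knockout samples, which overlap.

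**Figure D1:**
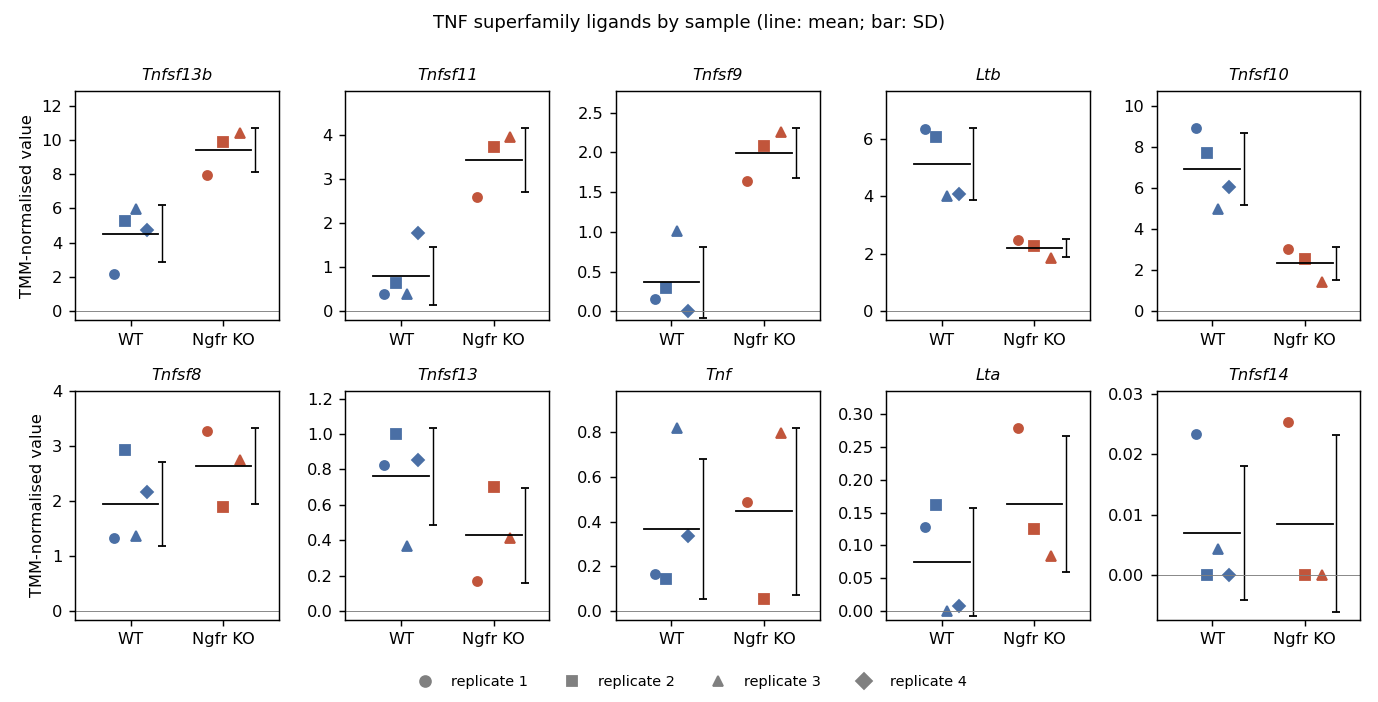
TMM-normalised value (y axis, linear, a separate scale per panel) of each of the 10 ligands in 4 WT (blue) and 3 Ngfr KO (red) samples. The symbol gives the replicate number, which is not a stated pairing across genotypes, the line is the mean and the bar the SD. Tnfsf13b, Tnfsf11 and Tnfsf9 are above, and Ltb and Tnfsf10 below, all WT samples in Ngfr KO, while the lower 5 panels overlap.

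The stretches of DNA just before the start of 4 of the called genes are printed here so that the genes that rose (Tnfsf13b, Tnfsf11) can be set beside those that fell (Ltb, Tnfsf10). Sequences are RefSeq's on GRCm38.p6, written 5′ to 3′ on the gene's strand, and stop before the first annotated transcript base. They cover chr8:10006217-10006466 (plus strand) for Tnfsf13b, chr14:78308044-78308293 (minus) for Tnfsf11, chr17:35194257-35194438 (plus) for Ltb and chr3:27316827-27317027 (plus) for Tnfsf10. Capitals mark matches to the motifs searched.
Tnfsf13b: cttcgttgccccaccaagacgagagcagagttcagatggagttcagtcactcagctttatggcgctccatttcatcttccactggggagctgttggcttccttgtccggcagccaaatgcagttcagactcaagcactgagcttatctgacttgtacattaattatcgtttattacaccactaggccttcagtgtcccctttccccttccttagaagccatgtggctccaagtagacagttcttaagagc
Tnfsf11: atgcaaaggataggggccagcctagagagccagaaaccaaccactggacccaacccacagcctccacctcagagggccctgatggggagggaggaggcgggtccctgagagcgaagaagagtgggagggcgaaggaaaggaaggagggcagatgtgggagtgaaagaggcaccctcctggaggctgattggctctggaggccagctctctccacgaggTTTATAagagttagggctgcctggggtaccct
Ltb: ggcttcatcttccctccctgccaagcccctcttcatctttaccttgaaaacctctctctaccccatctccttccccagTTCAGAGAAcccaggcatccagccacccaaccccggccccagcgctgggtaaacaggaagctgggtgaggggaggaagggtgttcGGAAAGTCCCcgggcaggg
Tnfsf10: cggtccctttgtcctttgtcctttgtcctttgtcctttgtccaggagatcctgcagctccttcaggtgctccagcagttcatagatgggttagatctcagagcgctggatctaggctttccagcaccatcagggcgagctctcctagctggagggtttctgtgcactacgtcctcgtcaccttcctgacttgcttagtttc

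Windows of 250 bases before the start were found for 9 of the 10 ligands, Tnfsf9 being the one without. Both strands were searched for the NF-κB consensus, TGANTCA (AP-1), the interferon response motif (GAAA, any 2 bases, GAAA), TTCNNNGAA (STAT) and TATAAA, with overlaps allowed. The Ltb window held GGAAAGTCCC, an NF-κB match on the opposite strand, at -87 to -78 from the RefSeq start; 3.9% of the 32851 windows in the reference hold such a match, alternative starts included. It also held TTCAGAGAA at -172 to -164, a TTCNNNGAA match found in 7.02% of windows. The Tnfsf11 window held TTTATA, the reverse complement of TATAAA, at -32 to -27, so this match lay on the opposite strand. TATAAA is found on either strand in 12.4% of windows. In the Tnfsf13b window before the first start and in the Tnfsf10 window none of the 5 motifs matched, which says only that these letters are not there. RefSeq lists a second Tnfsf13b start 166 bases downstream, and the window before it held TGAGTCA at -127 to -121 (a motif of 6.75% of windows) and GAAAGTGAAA at -16 to -7 (2.98%). Both matches lie past the first start, inside the annotated gene. Ligands that were not called had matches too. The Lta window held TTCAGGGAA and TTCCCAGAA (both TTCNNNGAA) and TATAAA, and the Tnf window TATAAA at -29 to -24. TGAGTCA was in the Tnfsf14 and Tnfsf13 windows, and the Tnfsf8 window held no match. The Tnfsf13 match, at -133 to -127, lies inside the annotated gene, whose start is 230 bases upstream of the RefSeq start. A match describes the letters and is not evidence of binding.

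Tnfsf13b encodes BAFF, the B-cell survival factor. It had more reads than any other ligand in each Ngfr KO sample. The gene (ENSMUSG00000031497) lies on chromosome 8 from 10006467 to 10039072, plus strand, in GRCm38 with GENCODE M21, with 7 exon blocks. Its normalised values were 2.15, 5.26, 5.98 and 4.75 in WT replicates 1 to 4 and 7.98, 9.91 and 10.4 in Ngfr KO replicates 1 to 3. WT replicate 1, the library with the lowest FDC marker sum, was the lowest, and the lowest Ngfr KO sample was above the highest WT sample. The means were 4.53 ± 1.67 (SD, n = 4) and 9.43 ± 1.28 (SD, n = 3), a ratio of 2.08. On the log2 scale the change was 0.97 (SE 0.25), with a limma adjusted p of 0.0112. Without WT replicate 1 it was 0.72 (limma adjusted p = 0.0138). In edgeR it was 1.12 (adjusted p = 0.0337), a call lost in 5 of the 7 edgeR fits that left out 1 sample. Without a filter on low values, the limma adjusted p was 0.0602. FDC markers rose beside it, 13 of the 14 being called higher; this list was chosen with earlier results of these samples known, and its part in the Tnfsf13b difference was not tested.

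Tnfsf11 encodes RANKL, known for driving osteoclasts and, in lymph nodes, as a product of stroma under the capsule and of T cells. The gene (ENSMUSG00000022015) lies on chromosome 14 from 78277445 to 78308043, minus strand, with 5 exon blocks. Its values were 0.397, 0.640, 0.396 and 1.78 in WT replicates 1 to 4, or 91 to 466 reads, and 2.60, 3.73 and 3.96 in Ngfr KO replicates 1 to 3, or 716 to 1100 reads. WT replicate 4 was well above the other WT samples and still below all Ngfr KO samples. The means were 0.802 ± 0.660 (SD, n = 4) and 3.43 ± 0.73 (SD, n = 3), a ratio of 4.27. The log2(value + 1) change was 1.35 (SE 0.23, limma adjusted p = 0.00165). The pseudocount understates the change of a gene at this level: edgeR gave 2.16 (adjusted p = 0.0177). WT replicate 4 moved the edgeR estimate most, to 2.91 when left out (adjusted p = 0.00487). The same sample had the highest reticular stroma marker sum in WT (227, against 94.3 to 109). Ngfr KO replicates 1 to 3 had sums of 370, 258 and 329. The highest of these was in the knockout sample with the lowest Tnfsf11 value. WT replicate 4 also had the highest FDC marker sum in WT (5156). The largest gene of the reticular sum was Dcn, at 37.5 to 69.3 in WT samples and 151 to 248 in knockout samples. Of 8 reticular genes tested limma called 4, all higher (18.3% over all genes), and edgeR 2 of 10 (8.67%). Pdpn, Ccl21a, Col1a2 and Lum had log2 changes of -0.53, -0.71, 0.01 and 0.53 and were not called by limma. The part of reticular cells in the Tnfsf11 difference was not tested. The T-cell sum overlapped between genotypes (4.30 to 13.2 in WT samples, 4.56 to 11.4 in knockout samples), and 0 of the 5 T-cell markers tested were called by limma.

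Tnfsf9 encodes 4-1BBL, a costimulatory ligand usually found on activated antigen-presenting cells. The gene (ENSMUSG00000035678) lies on chromosome 17 from 57105325 to 57107757, plus strand, with 3 exon blocks. WT replicates 1 to 4 had values of 0.152, 0.296, 1.00 and 0.00381, from 39, 79, 231 and 1 reads, and Ngfr KO replicates 1 to 3 had 1.64, 2.08 and 2.25, from 453 to 614 reads. WT samples thus ranged from 1 read to a level not far below the knockout, while the knockout samples lay close together. The means were 0.364 ± 0.443 (SD, n = 4) and 1.99 ± 0.32 (SD, n = 3). The log2(value + 1) change was 1.18 (SE 0.21, limma adjusted p = 0.00199). On the recovered reads the change was larger and not called: edgeR gave 2.52 (95% interval 0.48 to 4.56, adjusted p = 0.0904) and DESeq2 2.50 (adjusted p = 0.162). Without WT replicate 3, edgeR gave 3.79 (adjusted p = 0.0209). Myeloid marker sums overlapped (26.2 to 86.8 in WT samples, 38.9 to 59.3 in knockout samples). The largest gene of that sum was Marco, at 20.8 to 81.8 in WT samples and 1.42 to 49.8 in knockout samples. The overlap of the sum therefore says little about the other genes of the list. Marco was tested and not called (log2 change -1.95, limma adjusted p = 0.0756), while 2 of the 3 tested, Lyz2 and Cd14, were called higher by limma. In edgeR 1 of 7 was called, Cd14, and Lyz2 had an adjusted p of 0.0576. The part of myeloid cells in the Tnfsf9 difference was not tested. Of the exon bases of Tnfsf9, 14.9% are shared with the annotated gene Gm11110, whose values were at most 0.332, and reads in that stretch cannot be told apart from these values alone.

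Ltb encodes lymphotoxin beta, the membrane anchor of the lymphotoxin heterotrimer that binds Ltbr, a receptor FDCs need. The gene (ENSMUSG00000024399) lies on chromosome 17 from 35194439 to 35196320, plus strand, with 2 exon blocks. Its values were 6.33, 6.07, 3.99 and 4.06 in WT replicates 1 to 4 and 2.47, 2.28 and 1.83 in Ngfr KO replicates 1 to 3. The WT samples formed a higher and a lower pair, and all of them lay above the knockout samples. The means were 5.11 ± 1.26 (SD, n = 4) and 2.19 ± 0.33 (SD, n = 3), and WT was 2.33-fold higher. The log2 change was -0.92 (SE 0.18) with a limma adjusted p of 0.00330. It was -1.14 in edgeR (adjusted p = 0.0135). Lymphocytes are the known source of Ltb. B-cell markers summed to 15.3 to 23.0 in WT samples and 14.5 to 34.9 in knockout samples, which overlap. Of 5 tested 1 was called, Ms4a1, and that one higher (log2 change 0.79, limma adjusted p = 0.0472). With the lower filter and in edgeR 0 of 10 B-cell markers were called, Ms4a1 having adjusted p-values of 0.0689 in limma and 0.0693 in edgeR. T-cell sums overlapped, as given above. Of the natural killer and innate lymphoid list, 3 of 6 genes were in the table, and their sums overlapped (0.0130 to 1.86 in WT samples, 0.617 to 4.00 in knockout samples). The endothelial sum was lower in every Ngfr KO sample, as Ltb was. The part of lymphocytes or endothelial cells in the Ltb difference was not tested.

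Tnfsf10 encodes TRAIL, a ligand of death receptors that is known as an interferon-inducible gene and is also made by endothelium. The gene (ENSMUSG00000039304) lies on chromosome 3 from 27317028 to 27342427, plus strand, with 6 exon blocks. Its values were 8.95, 7.70, 5.0 and 6.05 in WT replicates 1 to 4 and 3.01, 2.57 and 1.43 in Ngfr KO replicates 1 to 3. The lowest WT sample was above the highest knockout sample. The means were 6.93 ± 1.75 (SD, n = 4) and 2.34 ± 0.82 (SD, n = 3), a 2.97-fold difference. On the log2 scale the change was -1.25 (SE 0.22) with a limma adjusted p of 0.00166. In edgeR it was -1.48 (adjusted p = 0.0124). Ngfr KO replicate 3 had the lowest Tnfsf10 value and also the lowest endothelial marker sum (28.3). Within WT the lowest Tnfsf10 value was in replicate 3, whose endothelial sum was 146, and the lowest sum (116) was in replicate 4. All 11 endothelial markers tested were called lower, against 15.8% of all genes. Pecam1 had a log2 change of -1.46 and Cdh5 of -1.55, both adhesion molecules of the vessel wall. Tie1, Tek, Emcn, Eng, Esam and Erg reached 1 in every WT sample and in fewer than 3 knockout samples. They thus entered the test through the group in which they were high. With the lower filter 11 of 12 were called lower, Flt1 being the exception. The part of endothelial cells in the Tnfsf10 difference was not tested.

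**Figure D2:**
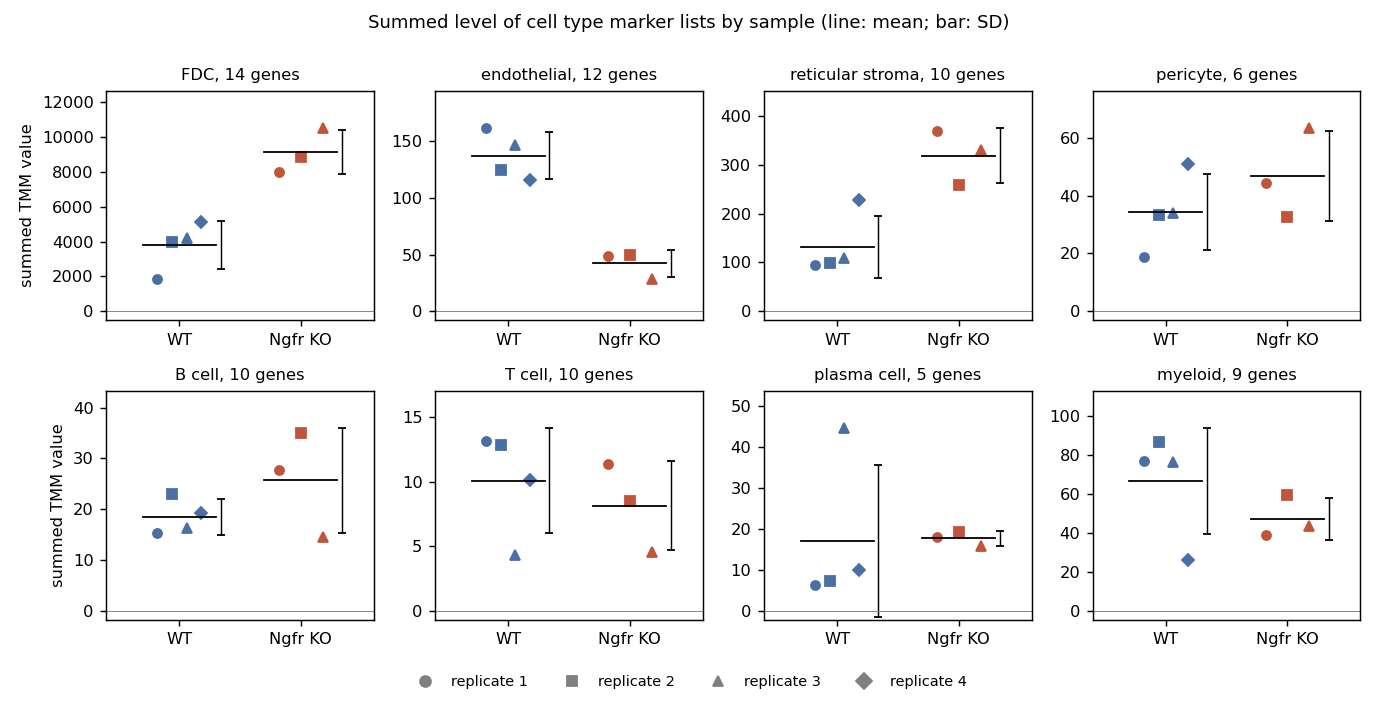
Summed TMM-normalised value (y axis, linear, a separate scale per panel) of 8 lists of cell type markers in 4 WT (blue) and 3 Ngfr KO (red) samples, with the mean as a line, the SD as a bar and the replicate number as the symbol. The endothelial sum is 116 to 162 in WT samples and 28.3 to 49.8 in knockout samples, while B-cell, T-cell and myeloid sums overlap. Marco is the largest gene of the myeloid sum.

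For each of the 5 called ligands an exact permutation test (two-sided, on the difference of means) gave p = 0.0286, the smallest value that 35 splits of 7 samples allow. It rests on the same values as the lack of overlap given above, so it is not separate support. For the other 5 it gave 0.171 to 0.829.

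Tnfsf8 encodes CD30L, a ligand of activated lymphocytes. It had values of 1.33, 2.93, 1.36 and 2.15 in WT replicates 1 to 4 and 3.28, 1.89 and 2.74 in Ngfr KO replicates 1 to 3, and the groups overlapped. The log2 change was 0.32 (95% interval -0.14 to 0.78, limma adjusted p = 0.250). The interval holds both a small fall and a rise of up to 0.78 on the log2 scale.

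Tnfsf13 encodes APRIL, the relative of BAFF that supports plasma cells. Its values were 0.825, 0.999, 0.365 and 0.854 in WT replicates 1 to 4 and 0.167, 0.702 and 0.412 in Ngfr KO replicates 1 to 3, from 46 to 267 reads, with overlap through WT replicate 3. It was tested with a lower filter (0.1 reached in 3 or more samples) and a pseudocount of 0.1, where 22.2% of 14592 genes were called (11.0% higher, 11.3% lower). The log2 change was -0.78 (95% interval -1.69 to 0.14, limma adjusted p = 0.201). These reads are uncertain, because 60.1% of the Tnfsf13 exon bases also belong to Tnfsfm13, a read-through gene of Tnfsf12 and Tnfsf13, and 13.5% to Tnfsf13os. Tnfsfm13 had 0.642, 0.655, 0.774 and 0.721 in WT and 0.486, 0.495 and 0.340 in Ngfr KO, and these groups did not overlap.

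Tnf and Lta, the soluble ligands of the TNF receptors, lie beside Ltb on chromosome 17: Tnf (ENSMUSG00000024401) from 35199381 to 35202007 and Lta (ENSMUSG00000024402) from 35203165 to 35205351, both on the minus strand. The gap between Ltb and Tnf is 3060 bases and that between Tnf and Lta 1157 bases. Tnf had 0.167, 0.142, 0.817 and 0.336 in WT replicates 1 to 4 and 0.490, 0.0543 and 0.797 in Ngfr KO replicates 1 to 3. The highest value was in WT replicate 3 and the lowest in Ngfr KO replicate 2, and the groups overlapped. The log2 change in the test with the lower filter was 0.11 (95% interval -1.19 to 1.42, limma adjusted p = 0.913); its sign turned when single samples were left out. Lta had 0.128, 0.161, 0 and 0.00763 in WT and 0.279, 0.126 and 0.0841 in Ngfr KO, from at most 77 reads, with a log2 change of 0.66 (95% interval -0.31 to 1.62, limma adjusted p = 0.308). Of the 3 neighbouring genes, only Ltb was called, and a difference between Ltb and its neighbours was not tested.

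Tnfsf14, which encodes LIGHT, another ligand of Ltbr, was covered by 6, 0, 1 and 0 reads in WT and by 7, 0 and 0 in Ngfr KO. Samples with 0 reads allow up to 3 reads, a value of 0.0102 to 0.0120 in those samples, counting error only. A difference was not detectable at this depth.

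**Figure D3:**
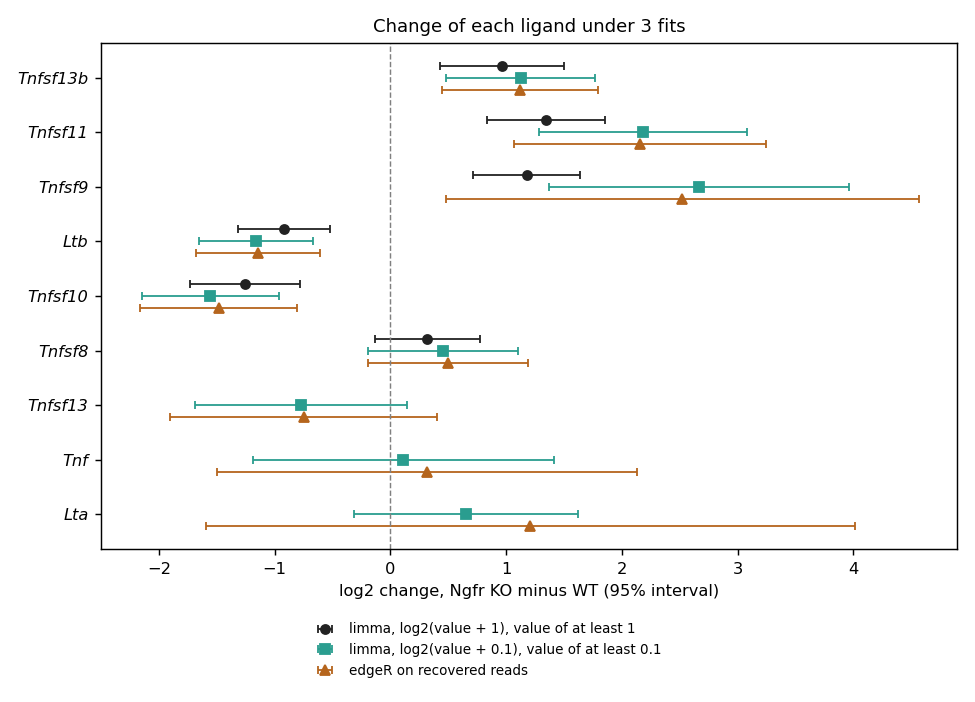
Log2 change, Ngfr KO minus WT (x axis), of 9 ligands (y axis) with 95% intervals under limma on log2(value + 1), limma with the lower filter on log2(value + 0.1), and edgeR on recovered reads; Tnfsf14 had too few reads. The intervals of Tnfsf13b, Tnfsf11, Tnfsf9, Ltb and Tnfsf10 lie on 1 side of 0 in all 3 fits, and those of the other 4 ligands cross 0.

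To compare ligands with each other, reads were divided by the length of all annotated exons and by library size (RPKM). In WT, Ltb was the highest, at 48.4 ± 13.1 (SD, n = 4), above Tnfsf10 (18.9 ± 5.4) in all 4 samples, which in turn was above Tnfsf13b (9.33 ± 3.16) in all 4. From there down each ligand overlapped the next: Tnfsf8 (7.32), Tnfsf13 (6.71), Tnfsf11 (5.20), Tnfsf9 (3.85), Tnf (3.10), Lta (0.778) and Tnfsf14 (0.0549). In Ngfr KO, 4 ligands shared the top and each overlapped the next: Tnfsf9 at 19.9 ± 2.7 (SD, n = 3), Tnfsf11 at 19.8 ± 3.9, Ltb at 18.9 ± 3.9 and Tnfsf13b at 17.7 ± 2.2. Tnfsf8 followed at 8.93 ± 2.34, below Tnfsf13b in all 3 samples, and Tnfsf10 at 5.83 ± 2.31. Ltb thus led alone in WT, and in Ngfr KO its level per length overlapped that of 3 other ligands. The exon length covers all annotated isoforms, so exons that these cells do not use lower the level. Shared exon bases, 60.1% with Tnfsfm13 for Tnfsf13 and 14.9% with Gm11110 for Tnfsf9, also make those levels and ranks uncertain.

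**Figure D4:**
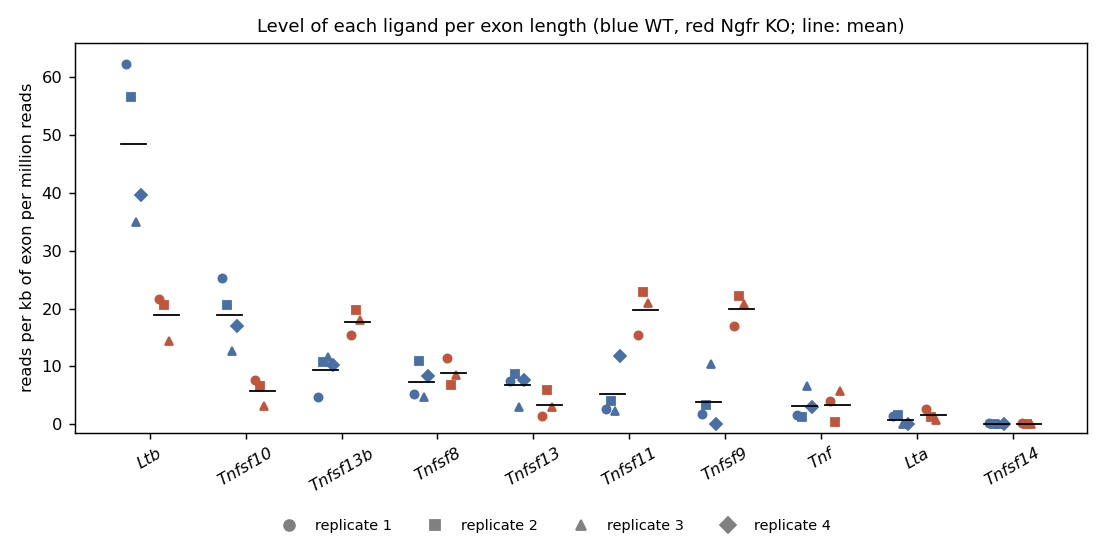
Reads per kb of exon scaled to library size (RPKM, y axis, linear) of the 10 ligands (x axis, in order of the WT mean), with 1 symbol per sample, WT in blue and Ngfr KO in red, and the mean as a line. Ltb leads in WT at 35.1 to 62.2, and Tnfsf9, Tnfsf11, Ltb and Tnfsf13b lie together between 14.4 and 22.8 in Ngfr KO.

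For each tested ligand, the other genes of the test were ranked by how closely they followed it over the 7 samples, as the root mean square difference of log2(value + 1) after removing each gene's mean. Tnfsf13b (0.59 around its own mean) was followed most closely by Art2a-ps, Gm26776 and Homer2, with differences of 0.11 to 0.13. Tnfsf11 (0.75) was followed by C1s1, a complement protease, at 0.17 and by Mmp3, a matrix protease, at 0.20. Ltb (0.50) was followed by Asah2, Unc13b and Sash1 at 0.07 to 0.09. Tnfsf10 (0.69) was followed by Phldb2, Lrrc32 and Sned1 at 0.13 to 0.14, Tnfsf9 (0.65) by Mettl21a, Insig2 and Pex2 at 0.14 to 0.16, and Tnfsf8 (0.32) by Sh3pxd2b, Fyb and Wdyhv1 at 0.13 to 0.14. With 8326 genes and 7 samples close followers exist for most patterns, so this is a description.

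The receptors of these ligands were described as a list of 14 genes, of which 8 passed the filter of 1: 1 rose, 1 fell and the median log2 change was -0.09, against 0.02 over all genes tested. Tnfrsf9, the 4-1BB receptor of the Tnfsf9 ligand, had 0.128, 1.33, 1.69 and 0.503 in WT and 11.2, 19.9 and 12.0 in Ngfr KO. It reached a value of 1 in all knockout samples but only in replicates 2 and 3 of WT. It thus entered the test through the group in which it was high. Tnfrsf9 rose by 3.05 on the log2 scale (SE 0.29; limma adjusted p = 1.35e-04), so that ligand and receptor transcripts were both higher in the same 3 samples. Tnfrsf22, a decoy receptor for TRAIL, was lower as its ligand was, with a log2 change of -0.46 (SE 0.14). The limma adjusted p was 0.0289 and that of edgeR 0.0537. Its values were 1.19 to 1.91 in WT samples and 0.767 to 0.827 in knockout samples. It thus entered the limma test through WT, the group in which it was high.

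With the lower filter, 12 receptors were tested, and 3 rose and 1 fell. Tnfrsf11b encodes osteoprotegerin, the soluble decoy that binds RANKL. Its reads numbered 4, 5, 14 and 43 in WT samples and 215, 492 and 274 in knockout samples, the latter being values of 0.780 to 1.67. It reached 0.1 in all 3 knockout samples and in 1 WT sample, so it entered this test through the group in which it was high. The log2 change was 2.99 in that test (limma adjusted p = 8.74e-04) and 4.25 in edgeR (adjusted p = 0.00730). Tnfrsf11a, the signalling receptor of RANKL, had 2.36 to 5.80 in WT samples and 1.74 to 2.43 in knockout samples, with a log2 change of -0.50 (limma adjusted p = 0.0964). The signalling receptor was thus not called.

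Tnfrsf13c encodes the BAFF receptor, a protein of B cells. It had 0.191, 0.374, 0.269 and 0.271 in WT and 2.23, 1.08 and 0.613 in Ngfr KO, with a log2 change of 1.75 in the test with the lower filter (limma adjusted p = 0.00934) and 2.32 in edgeR (adjusted p = 0.0105). All knockout samples were above all WT samples. B-cell sums overlapped; the part of B cells in this difference was not tested. Tnfrsf13b, which encodes TACI and binds both BAFF and APRIL, overlapped between the groups (limma adjusted p = 0.385 with the lower filter), and Tnfrsf17, the plasma cell receptor BCMA, was at or under 0.111 in every sample. The receptors of lymphotoxin and TNF were not called: Ltbr had a log2 change of -0.08 (limma adjusted p = 0.735), Tnfrsf1a 0.16 (limma adjusted p = 0.486) and Tnfrsf1b 0.10 (limma adjusted p = 0.637). The TRAIL death receptor Tnfrsf10b had -0.10 (limma adjusted p = 0.676).

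**Figure D5:**
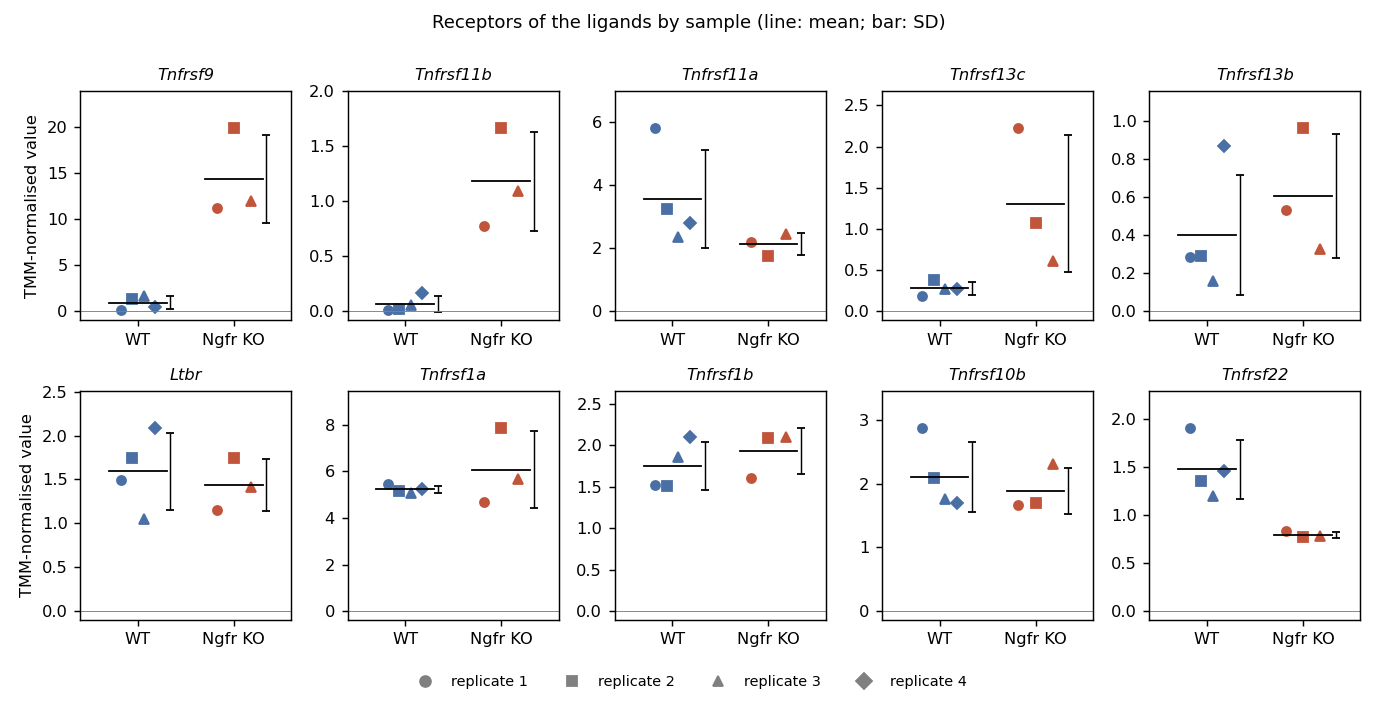
TMM-normalised value (y axis, linear, a separate scale per panel) of 10 receptors in 4 WT (blue) and 3 Ngfr KO (red) samples, with the mean as a line, the SD as a bar and the replicate number as the symbol. Tnfrsf9, Tnfrsf11b and Tnfrsf13c are higher and Tnfrsf22 is lower in all Ngfr KO samples, while Ltbr, Tnfrsf1a, Tnfrsf1b and Tnfrsf10b overlap.

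Of 8 further TNF family ligands, 4 were in the table and the other 4 (Tnfsf4, Tnfsf18, Fasl and Cd70) were not analysed here. Tnfsf12, which encodes TWEAK and lies beside Tnfsf13, had 0.634, 0.453, 0.456 and 0.561 in WT and 0.109, 0.139 and 0.272 in Ngfr KO. With the lower filter its log2 change was -1.23 (limma adjusted p = 0.0212), and edgeR did not call it. Its exons too are shared in part with the read-through gene. Cd40lg, the helper signal of T cells, and Eda overlapped between the groups (limma adjusted p = 0.232 and 0.527 with the lower filter).

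Among 13 tested TRAF and adaptor genes 2 rose and 0 fell, with a median of 0.27. Traf1, an adaptor that 4-1BB recruits, had 3.06 to 4.69 in WT samples and 12.0 to 13.3 in knockout samples, and rose by 1.56 on the log2 scale (SE 0.16; limma adjusted p = 2.03e-04). Tradd, the death-domain adaptor of TNF receptor 1, had a log2 change of 0.41 (limma adjusted p = 0.0426). It reached a value of 1 in all knockout samples but only in replicate 3 of WT. It thus entered the test through the group in which it was high. Tradd was not called with the lower filter (limma adjusted p = 0.0623) or in edgeR (adjusted p = 0.0550), where Traf1 was the 1 gene of the list called. Among 11 NF-κB kinases, subunits and inhibitors 2 rose and 1 fell, with a median of -0.04. Nfkbia, the inhibitor IκBα, rose by 1.10 on the log2 scale (limma adjusted p = 0.0144) and Relb, a subunit of the non-canonical arm, by 0.55 (limma adjusted p = 0.0449; edgeR adjusted p = 0.0616). Nfkb1, which encodes p105 and p50, fell by 0.70 on the log2 scale (limma adjusted p = 0.00480).

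Among the enzymes and proteins that cleave or bind these ligands, 1 of 4 tested genes was called. Sppl2a, an intramembrane protease whose substrates include TNF, had 6.66 to 11.5 in WT samples and 13.9 to 14.8 in knockout samples, a log2 change of 0.70 (limma adjusted p = 0.0141). The sheddase Adam17 had -0.22 (limma adjusted p = 0.345) and Adam10 -0.14 (limma adjusted p = 0.594).

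Of 9 tested genes whose follicular or stromal expression is known to depend on lymphotoxin, 7 rose and 0 fell, with a median log2 change of 1.19. Over all genes 18.3% were called higher. With the lower filter and in edgeR 6 of the 9 rose (11.0% and 8.67% over all genes). The call lost was Il7, with a limma adjusted p of 0.0491. Its adjusted p was 0.0637 in limma with the lower filter and 0.0622 in edgeR. The list shares genes with the FDC markers and was chosen with earlier results of these samples known, so it is not independent evidence of the direction. The adhesion molecule Madcam1 rose by 2.69 (limma adjusted p = 1.35e-04), the ectoenzyme gene Bst1 by 1.41 (0.00342) and the integrin ligand Vcam1 by 1.38 (0.00324), all as log2 changes. Cxcl13, the chemokine that draws B cells into follicles, had 0.84 (limma adjusted p = 0.180), and Ccl21a, a chemokine of the T zone, -0.71 (limma adjusted p = 0.430).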

How the data were processed

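RNA of sorted FDCs was amplified with SMART-Seq v4 and made into libraries with Nextera XT, per the labels' protocols. The authors deposited TMM-normalised signal (trimmed mean of M values) by gene and sample. Per the submitters' processing notes, bcl2fastq 2.20.0.422 and mm10 were used; the aligner, counter and annotation are not given in the sources used here. In every sample 100% of the deposited signal values were whole multiples of 1 step (within 0.01 reads), which gave back reads. Limits in reads cover counting error only.

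Coordinates came from GENCODE M21 (GRCm38) and promoters from RefSeq (GRCm38.p6). limma 3.58.1 in R 4.3.3 (lmFit; eBayes, trend) compared Ngfr KO with WT on log2(value + 1), fitted and adjusted over all genes that reached 1 in 3 or more samples; ligands under that minimum used 0.1 and a pseudocount of 0.1. edgeR 4.0.16 and DESeq2 1.42.0 ran on recovered reads. Single values had an exact two-sided permutation test. The fits were tested on simulated data, where most changed genes were recovered in the right direction but a larger share of limma's calls than the threshold allows was false. Named genes are the ligands, up to 3 called genes per list and direction, and the 3 genes most like each tested ligand, of which 1 is not reported here; other list genes were named after their values were seen. Ligands and lists were chosen with earlier results of these data known. Alternatives were other pseudocounts, filters, scalings and variance models, thinned reads, the replicate number as a block, and leaving out each sample.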

Additional observations from a re-analysis of the deposited data

How the results depend on the processing

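The number of ligands called was 4 or 5 in all 19 alternatives that tested any of them; a minimum value of 10 left none to test. Ltb and Tnfsf10 kept their direction and an adjusted p under 0.05 in all 26 alternatives each, Tnfsf11 in 25. The exception for Tnfsf11 was edgeR without Ngfr KO replicate 2 (adjusted p = 0.0643). Tnfsf13b kept its direction in all 26 and its call in 20: it was lost without a filter (adjusted p = 0.0602) and in 5 of the 7 edgeR fits that left out 1 sample, with 0.111 the highest adjusted p, without Ngfr KO replicate 2. Tnfsf9 kept its direction in all 26 and its call in 17: edgeR, edgeR without a filter and DESeq2 did not call it, and of the 7 edgeR fits that left out 1 sample 1 did, that without WT replicate 3. The edgeR fits with a sample left out were added after seeing the data. Log2 changes depend on the pseudocount: with 5, that of Tnfsf11 was 0.54 and that of Tnfsf9 0.39. Tnf turned its sign in 5 of 25 alternatives, each with 1 sample left out, and ranged from -0.41 to 1.08 over such fits. Over all genes, 535 of 1297 were called with a minimum value of 10, and 1614 to 3006 with 1 sample left out; the count moved by over 1.5 times without WT replicate 1 (1870), and without knockout replicates 1 (1803) or 2 (1614), and the cause was not tested. Pathway genes called numbered 15 of 45, close to the 34.2% over all genes, and 9 to 16 with 1 sample left out. The 9, of 45 tested, came without Ngfr KO replicate 2, where 1614 of 8064 genes were called. The design text calls the samples independent, so replicate numbers were not used as pairs in the main fit. Deviations of same-numbered samples correlated at 0.298, -0.0593 and -0.0108 for replicates 1, 2 and 3. The first was the highest of all pairs across genotypes, the next being 0.111 (WT replicate 3 with Ngfr KO replicate 2). These correlations cannot decide whether samples were paired. With the replicate block 2717 genes and 5 ligands were called, and in edgeR with the block Tnfsf9 had an adjusted p of 0.0265. Tnfsf14 and Lta had few reads, at most 7 and 77 in a sample. Tnf had 16 to 199. With reads thinned to the smallest total, its log2 change kept its sign and was not called (0.11, limma adjusted p = 0.916).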
